A study of Arabidopsis thaliana with 4 samples.

Results

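The IQD genes of Arabidopsis thaliana were followed in root tip RNA-seq of wild type (WT) and of SCL28-OX, a line that overexpresses the GRAS family gene SCL28. They were chosen by name and description: each line of the authors' comparison table whose gene name starts with IQD, or whose description speaks of an IQ domain. This gave 33 genes of the 26822 gene lines used, IQD1 to IQD33, and no measured level entered the choice. All 33 carried an IQD name and 32 also fitted by description, with IQD1 found by its name alone.

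Seedlings of both genotypes were of the Col-0 ecotype, 5 d old, and grown on agar under constant light at 22 °C. WT and SCL28-OX had 2 libraries each, and SCL28-OX was represented by line #10 alone, so an effect of that line and an effect of the overexpressed gene cannot be told apart. The tissue label reads root tip but the extraction protocol names roots, and no source used here gives the promoter that drives the transgene. No label says whether replicate libraries came from separate plants or cultures, so the p-values measure only a spread that may be technical. With 2 against 2 libraries an exact permutation test cannot give a two-sided p under 0.333, and the tests below use limma, which shares the estimate of spread across all genes.

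IQD proteins are plant scaffolds that bind calmodulin, the small protein that senses calcium, through a domain of IQ motifs known as IQ67. Many of them sit on microtubules, at the plasma membrane or in the nucleus, and they are known for roles in cell shape, in the placing of the division plane and in the shape of organs, as the tomato fruit gene SUN, an IQD gene, shows. Because the samples are bulk tissue, fewer cells of a type and less RNA per cell cannot be told apart in any value below.

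The IQ motif, which the IQ67 domain holds, was read here in its full form. That form is an isoleucine or leucine, a glutamine, 3 residues, an arginine and a glycine, 3 residues and an arginine. In proteins translated from the RefSeq annotation of TAIR10.1, 28 of the 33 IQD genes encoded this form, against 55 of 27409 proteins in all (0.201%). It occurred at least 2 times in 15 members and 1 time in 13, and IQD4, IQD9, IQD10, IQD29 and IQD33 had no match to it, which says only that this spelling is not in those proteins. The codons of the motif are shown for IQD14, the member that rose most, for IQD13, the member closest to it in protein sequence, for IQD2, the member with the highest level, and for IQD23 and IQD20, members that fell. These genes were picked after their values were seen. Each sequence is the coding strand, read across the exon junction that lies inside the motif, and the capitals mark the codons of the isoleucine, glutamine, arginine, glycine and last arginine.
IQD14, chr2:18110389-18110514, plus strand, coding exons 2 and 3: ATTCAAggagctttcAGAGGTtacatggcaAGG
IQD13, chr3:22050200-22050321, plus strand, coding exons 2 and 3: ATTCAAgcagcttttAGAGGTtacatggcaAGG
IQD2, chr5:711785-711969, minus strand, coding exons 2 and 3: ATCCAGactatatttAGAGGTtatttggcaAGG
IQD23, chr5:24930870-24932085, minus strand, coding exons 1 and 2: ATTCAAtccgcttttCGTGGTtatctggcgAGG
IQD20, chr3:19074189-19074300, minus strand, coding exons 1 and 2: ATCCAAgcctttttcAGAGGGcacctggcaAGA
In all 5 genes an intron splits the motif. The encoded proteins ranged from 103 residues (IQD20) to 794 (IQD32). They were basic, with a median isoelectric point of 10.31 against 7.07 for all proteins, and 31 of 33 were at 9 or above. IQD32, at 5.21, and IQD33, at 8.54, were the exceptions.

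The overexpressed gene checks the labels. SCL28 (AT1G63100) stood at 6.78 and 7.57 FPKM in WT and at 2378 and 2300.2 in SCL28-OX, where FPKM is a fragment count scaled by transcript length and by library size. Root tip markers were present in every library, with PLT1, PLT2, SHR, SCR, WER and RGF3 summing to 132 and 136 FPKM in WT and to 109.7 and 111 in SCL28-OX. They went both ways. PLT1, WER and RGF3 were called lower (log2 changes of -0.27, -0.68 and -0.71), SCR was called higher (0.50), and PLT2 and SHR were not called. These calls were the same with the length correction described below. With length and GC content corrected, SCR was not called and SHR was called lower. Depth, inferred from the smallest steps between FPKM values, was between 25900000 and 32800000 fragments per library, so that 1 FPKM of a transcript of 1500 bases was worth 34.6 to 44.0 fragments.

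Most IQD genes were detected in these libraries. A mean of at least 1 FPKM, the level needed for a test, was reached by 30 of the 33. IQD21, IQD25 and IQD27 were under it, between 0.0339 and 0.263 FPKM in any library, and IQD27 was the lowest of all. At the other end, IQD2, IQD31, IQD14, IQD32 and IQD9 stood at 36.0 FPKM or more in every library. On this scale, which is per length of transcript, IQD2 stood at 91.1 to 118 FPKM and was the highest member in every library. IQD31 stood at 65.7, 66.8, 70.0 and 67.6 FPKM in WT replicates 1 and 2 and SCL28-OX replicates 1 and 2, and IQD9 at 56.3, 50.2, 52.5 and 50.8. In WT, IQD32 stood at 53.7 and 53.2, inside the range of IQD9. Over the family the FPKM summed to 624 and 621 in WT and to 725 and 719.6 in SCL28-OX. Without IQD14 the sums were 588 and 585 against 635 and 631, and the share of IQD14 in the family's FPKM was 5.77% and 5.79% in WT and 12.3% in each SCL28-OX library.

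**Figure D1:**
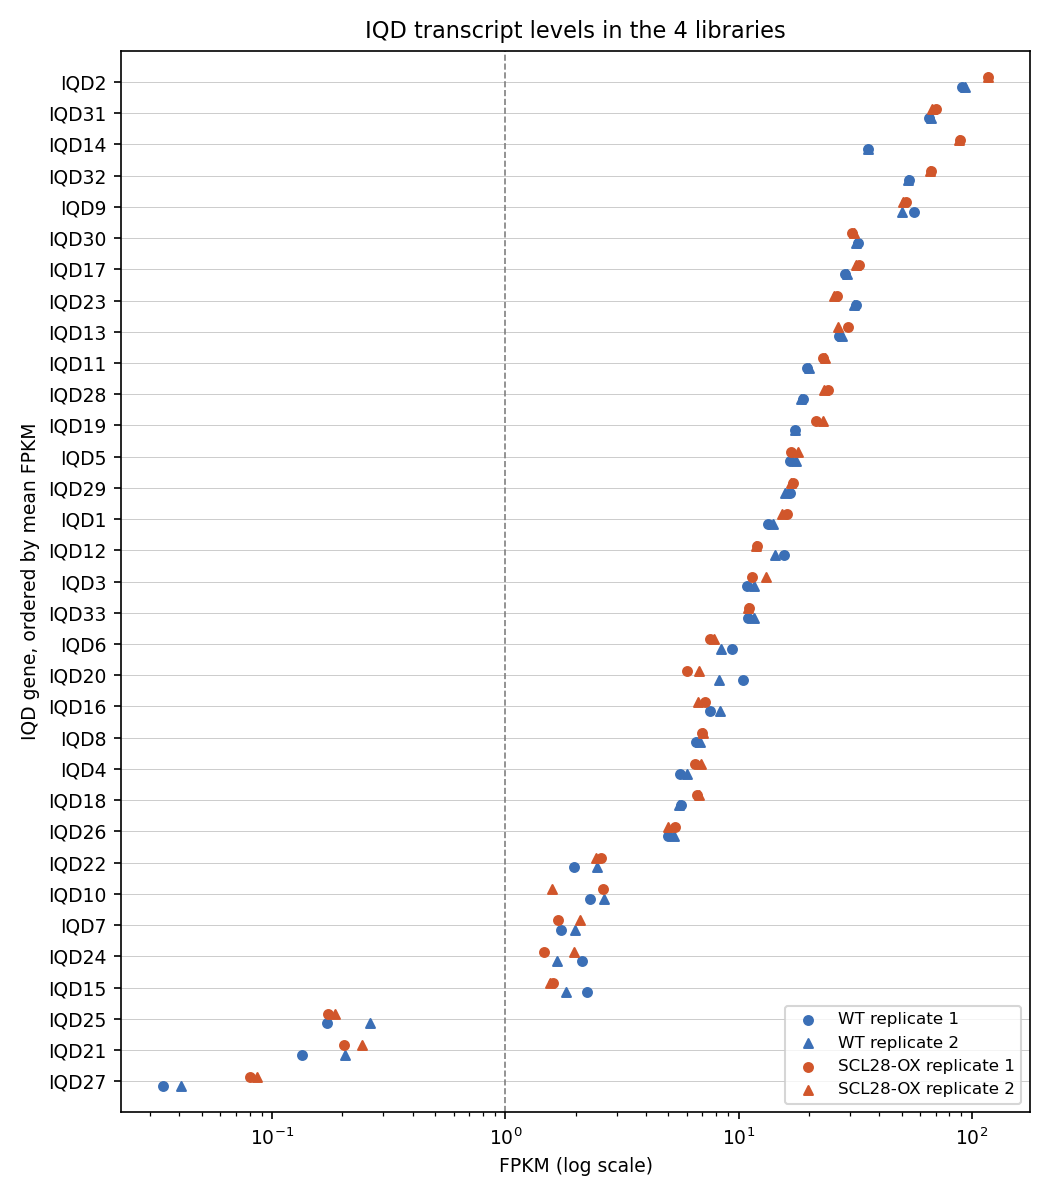
FPKM (log scale) of the 33 IQD genes in each of the 4 libraries, ordered by mean, with WT in blue and SCL28-OX in red. The dashed line marks the 1 FPKM needed for a test, under which IQD25, IQD21 and IQD27 lie, and IQD14 is the gene whose SCL28-OX values, 89.4 and 88.6 FPKM, lie farthest above its WT values of 36.0.

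IQD14 changed most. Its transcript stood at 36.0 and 36.0 FPKM in WT and at 89.4 and 88.6 in SCL28-OX. Both SCL28-OX libraries were far above both WT libraries, and within a genotype the libraries nearly coincided. The means were 36.0 ± 0.0152 and 89.0 ± 0.609 FPKM (SD, n = 2), a ratio of 2.47, and on the log2 scale SCL28-OX was higher by 1.28 ± 0.03 (SE, n = 2 per genotype, limma adjusted p = 3.56e-07, Benjamini-Hochberg over 18087 genes). IQD14 (AT2G43680, TAIR10 chromosome 2, 18108349 to 18111831) was the 1 tested member past a 2-fold rise, a size that 0.675% of all tested genes reached with a call. A larger rise was seen in 38 of the 18087 genes tested. Shoot tissue markers were also higher in SCL28-OX in their sum, at 72.6 and 71.9 FPKM in WT and 123 and 124 in SCL28-OX. RBCS1A, LHCB1.3, PSAD1 and GUN5 were past the test. CAB2, too low for a test, stood at 0.209 and 0.0358 FPKM in WT and at 0.00 and 0.0760 in SCL28-OX. The log2 change of GUN5 was 0.75, or 0.15 when corrected for transcript length as described below. With length and GC content corrected it was -0.03 and not called. The sum of the 3 root hair markers went from 148 and 145 to 176 and 175, and that of the 4 xylem markers from 186 and 184 to 195 and 195. All 3 root hair markers were called higher, and 2 of them when corrected for length, without RHD2. Of the xylem markers IRX3 and CESA4 were called higher, and CESA4 was not when corrected for length. XCP1, with most of the xylem FPKM, stood at 157 and 155 in WT and 152 and 151 in SCL28-OX, and was not called. Corrected for length, 3 xylem markers were called higher, XCP1 among them. The part of any of these tissues in the rise of IQD14 was not tested.

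Across the family the differences were small. Of the 30 tested members 9 rose and 4 fell (30.0% and 13.3%), beside 32.7% and 33.8% of all 18087 genes, of which 66.5% were called in either direction. The median absolute log2 change was 0.17, against 0.25 over all genes tested, and 28 of the 30 lay within 0.4 of 0 on the log2 scale, a limit set after the values were seen. IQD14 and IQD20 were the others. WT and SCL28-OX values were without overlap in 20 of the 30 members, 13 of them higher and 7 lower in SCL28-OX, as they were in 83.6% of all genes tested. By the q-values of the authors' deposited table, under 0.05, a rise was called in 7 of these members and a fall in 2, beside 58.2% of the genes with a deposited test in either direction. All 9 were among the 13 called here.

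The log2 change, with its sign, went with the length of the transcript, in the family as in all genes. Over the 17795 tested genes with an annotated length, genes in the shortest of 10 length groups had a median log2 change of -0.41 and those in the longest of 0.48, and Spearman's rho with the length of the longest transcript was 0.677. For the 30 tested IQD genes it was 0.711, or 0.682 without IQD14, over genes that share the same 4 libraries. Each library was therefore also corrected for its trend with transcript length, and the family was read both ways. After this correction 23.4% of the 17795 genes were called higher and 22.7% lower, and of the IQD genes 4 were higher and 6 lower. The median absolute log2 change of the members was then 0.09, against 0.14 over all genes. Over all genes the change also went with the GC content of the transcript, with a rho of 0.403, and of 0.344 after the length correction. With length and GC content corrected together 5 members were higher and 5 lower, where 20.8% and 21.3% of all genes were (42.1% in either direction).

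**Figure D2:**
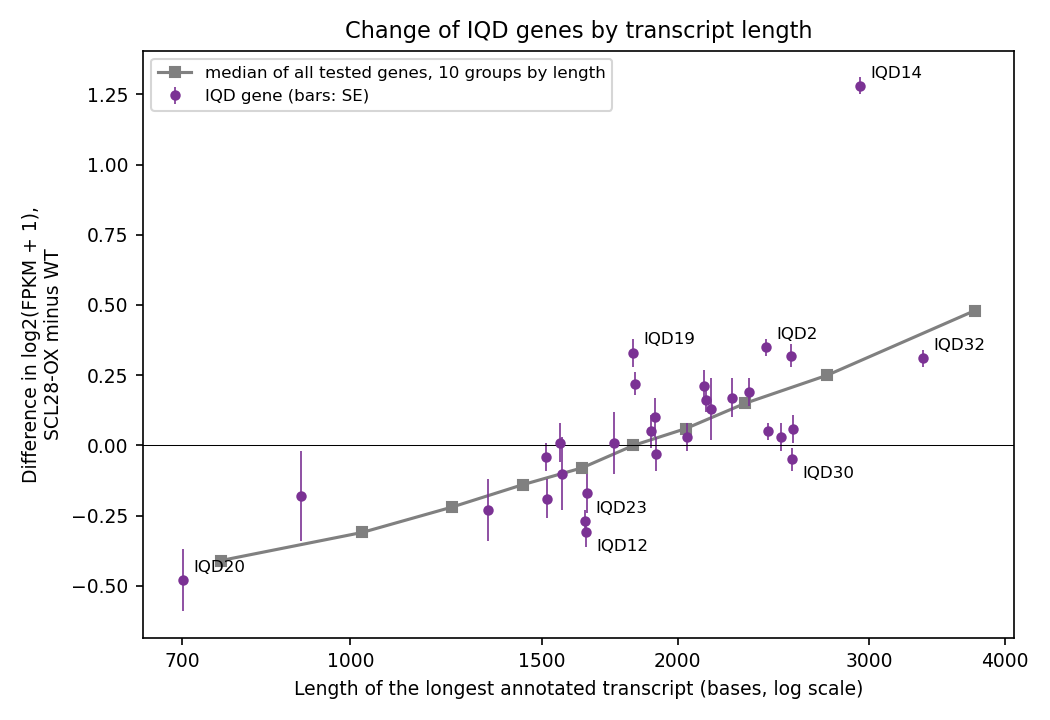
Difference in log2(FPKM + 1), SCL28-OX minus WT, of the 30 tested IQD genes (purple, bars are SE) against the length of the longest annotated transcript (log scale), with the median of all tested genes in 10 groups by length in grey. Most IQD genes lie near the grey line, IQD20 at -0.48 is at its short end, IQD32 at 0.31 is under its long end and IQD14 at 1.28 stands far above it.

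Of the 13 members called without the correction, 6 kept their call and direction with it, and the same 6 did so with length and GC corrected together: IQD14, IQD2, IQD19 and IQD11 higher, IQD12 and IQD23 lower. For IQD14 the log2 change was 0.99 with the length correction and 0.85 with length and GC, and 128 and 185 of 17795 genes rose more. Over 17 settings, these corrections included, it lay between 0.85 and 1.34, and over 5 more that kept the length correction and blocked by replicate number or left out a library, between 0.98 and 0.99. It passed the test in each.

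IQD2, a close relative of the glucosinolate gene IQD1, stood at 91.1 and 93.2 FPKM in WT and at 117 and 118 in SCL28-OX. Its SCL28-OX libraries were both higher, by more than the libraries of a genotype differed. The log2 change was 0.35 ± 0.03 (SE, limma adjusted p = 1.7e-05), and 0.17 after the length correction (limma adjusted p = 0.00125). IQD19 stood at 17.5 and 17.5 FPKM in WT and at 21.5 and 23.0 in SCL28-OX, again without overlap. Its log2 change of 0.33 (limma adjusted p = 0.000552) was unaltered by the length correction, since its transcript of 1820 bases lies where the trend crosses 0. IQD11 stood at 19.7 and 20.0 in WT and at 23.1 and 23.5 in SCL28-OX. The libraries of each genotype lay close together, and the log2 change was 0.22 (limma adjusted p = 0.00191), or 0.21 after the correction.

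The members that fell both ways were IQD12 and IQD23. IQD23 stood at 31.8 and 31.4 FPKM in WT and at 26.4 and 25.7 in SCL28-OX. Every SCL28-OX value was lower than every WT value, with a log2 change of -0.27 (limma adjusted p = 0.000428), or -0.21 after the length correction. IQD12 stood at 15.6 and 14.4 in WT and at 12.0 and 11.9 in SCL28-OX. Here too the genotypes did not overlap, and the log2 change was -0.31 (limma adjusted p = 0.00165), or -0.25 with the length correction. Leaving out WT replicate 1 ended that length-corrected call (-0.20, limma adjusted p = 0.0556).

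**Figure D3:**
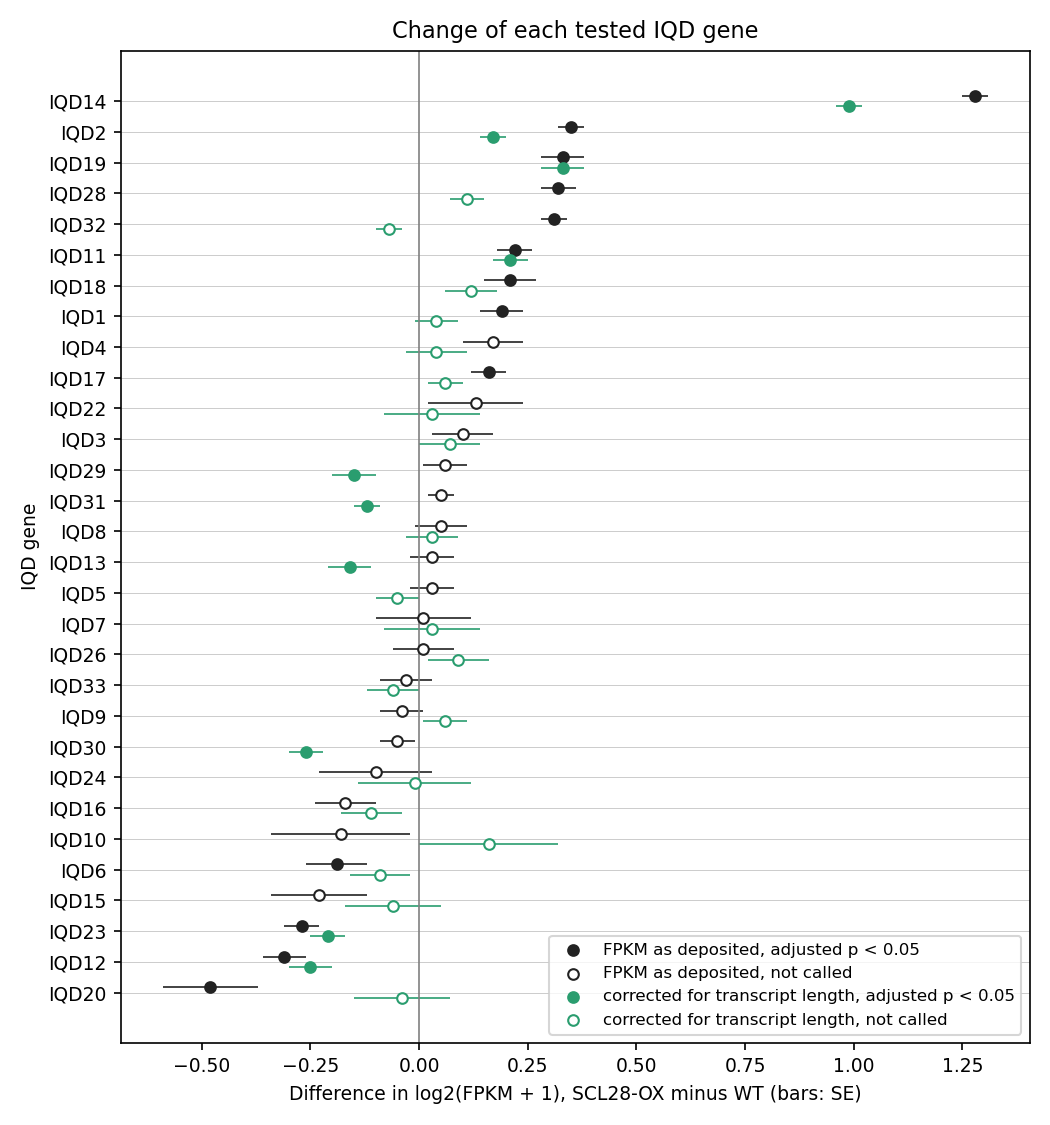
Difference in log2(FPKM + 1), SCL28-OX minus WT, of each of the 30 tested IQD genes, from the FPKM as deposited (black) and after the correction for transcript length (green). Bars are SE and filled points have a limma adjusted p under 0.05, as the 6 genes IQD14, IQD2, IQD19, IQD11, IQD23 and IQD12 have in both colours.

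A further 5 members were called higher in the FPKM as deposited and not after the length correction. IQD28 stood at 18.9 and 18.6 FPKM in WT and at 24.1 and 23.2 in SCL28-OX. Its log2 change of 0.32 (limma adjusted p = 0.000361) became 0.11 (limma adjusted p = 0.0652), and with length and GC corrected together it passed at 0.13 (limma adjusted p = 0.0453). Its line shares an interval with APK2A on the other strand. IQD32, which encodes the longest and the only acidic protein, stood at 53.7 and 53.2 in WT and at 66.8 and 66.0 in SCL28-OX. Both SCL28-OX libraries were higher, with a log2 change of 0.31 (limma adjusted p = 5.02e-05), but its transcript of 3364 bases is the longest of the family and the length-corrected value was -0.07. IQD18 stood at 5.67 and 5.58 in WT and at 6.61 and 6.74 in SCL28-OX, a log2 change of 0.21 (limma adjusted p = 0.0199) whose call was lost when any of the 4 libraries was left out (0.20 to 0.23, highest limma adjusted p = 0.0808) and with quantile normalization (0.14). The length-corrected value was 0.12. IQD1, which encodes a microtubule-bound regulator of glucosinolate defence compounds, stood at 13.4 and 14.1 in WT and at 16.1 and 15.4 in SCL28-OX. Its log2 change was 0.19 (limma adjusted p = 0.0142), with the call lost without WT replicate 1 (0.15) or SCL28-OX replicate 1 (0.16), with quantile normalization (0.13) and with the length correction (0.04). IQD17 stood at 28.6 and 29.3 in WT and at 33 and 31.8 in SCL28-OX, higher in both libraries, with a log2 change of 0.16 (limma adjusted p = 0.00728), or 0.06 after the length correction.

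Short members lay at the other end. IQD20, which encodes the shortest protein, stood at 10.5 and 8.24 FPKM in WT and at 6.0 and 6.79 in SCL28-OX. The WT libraries were higher and also differed from each other more than those of most members. Its log2 change was -0.48 ± 0.11 (SE, limma adjusted p = 0.00541), and -0.04 once corrected for length. The deposited interval of IQD20 (TAIR10 chromosome 3, 19074036 to 19074426) is shorter than the annotated transcript of 701 bases used for the correction, so its corrected value is uncertain. IQD10, with a transcript of 901 bases, stood at 2.30 and 2.65 in WT and at 2.61 and 1.58 in SCL28-OX, overlapping, with values of -0.18 without and 0.16 with the length correction, neither past the test. Without SCL28-OX replicate 1 its uncorrected value passed at -0.43, and without SCL28-OX replicate 2 its length-corrected value passed at 0.41. IQD15 stood at 2.23 and 1.82 in WT and at 1.60 and 1.55 in SCL28-OX, without overlap, and its log2 change of -0.23 did not pass (limma adjusted p = 0.0900).

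A group of longer members, not called in the FPKM as deposited, was called lower with the length correction. IQD30 stood at 32.6 and 31.8 FPKM in WT and at 30.6 and 31.4 in SCL28-OX. Its values lay close together, with a log2 change of -0.05 that missed the threshold (limma adjusted p = 0.256). The length-corrected value was -0.26 (limma adjusted p = 0.0011), or -0.20 with GC. For IQD13, IQD29 and IQD31 the sign turned with the correction. IQD13, known from the pits of xylem vessels, stood at 27.1 and 27.8 in WT and at 29.4 and 26.7 in SCL28-OX, overlapping, and went from 0.03 to -0.16 (limma adjusted p = 0.0322). The call was lost with GC added (-0.07) and without WT replicate 1 (-0.18), WT replicate 2 (-0.15) or SCL28-OX replicate 2 (-0.10). IQD29, at 16.6 and 15.9 in WT and 17.1 and 16.8 in SCL28-OX, went from 0.06 to -0.15 (limma adjusted p = 0.0326), a call lost when any of the 4 libraries was left out (-0.18 to -0.12). IQD31, whose values are given above, went from 0.05 to -0.12 (limma adjusted p = 0.0144), and the call was lost without WT replicate 2 (-0.11) or SCL28-OX replicate 2 (-0.10). Quantile normalization of the uncorrected values called it the other way, higher by 0.14 (limma adjusted p = 0.00495). Without WT replicate 1, WT replicate 2 or SCL28-OX replicate 2, 3 members were called lower after the length correction, in place of 6.

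IQD6, IQD7 and IQD8 bind the POK kinesins of the division site and act in placing the division plane. IQD6 stood at 9.39 and 8.44 FPKM in WT and at 7.51 and 7.85 in SCL28-OX. Its log2 change of -0.19 passed the test (limma adjusted p = 0.0403), but not after the length correction (-0.09), nor without WT replicate 1 (-0.12), SCL28-OX replicate 1 (-0.16) or SCL28-OX replicate 2 (-0.22), nor without the filter on low values (-0.19), and its line shares an interval with CYP711A1 on the other strand. IQD7, at 1.74, 1.98, 1.68 and 2.10 FPKM, and IQD8, at 6.60, 6.85, 6.97 and 7.03, did not pass the test in any setting tried. The division markers CYCB1;1, KNOLLE and CDKB2;1 summed to 123 and 118 FPKM in WT and to 106 and 104 in SCL28-OX. CYCB1;1 and KNOLLE fell past the test, by -0.30 and -0.28, or -0.24 and -0.13 corrected for length. CDKB2;1 overlapped, at 40.2 and 37.4 FPKM in WT and 38.9 and 37.2 in SCL28-OX. Its log2 change of -0.03 did not pass, whereas its length-corrected value, 0.13, passed as a rise. With length and GC it was 0.05 and did not pass. The part of these markers in the values of IQD6, IQD7 and IQD8 was not tested. IQD5, which organises microtubules in leaf pavement cells, stood at 16.6 and 17.6 in WT and at 16.8 and 18 in SCL28-OX, overlapping, with a log2 change of 0.03 that did not pass. No source used here says whether the counting used strand, so the reads of IQD5, IQD6, IQD24, IQD28 and IQD33 and those of the gene on the other strand in the same interval may not have been told apart. In the TAIR10.1 annotation an antisense RNA also covers 1866 bases of IQD13, and AT4G10650 covers 795 bases of IQD16.

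The other members had no call in the FPKM as deposited or after the length correction. IQD3, IQD4, IQD16, IQD22, IQD24, IQD26 and IQD33 had log2 changes between -0.17 and 0.17 and IQD9 one of -0.04. Leaving out 1 library gave a call in IQD3 without SCL28-OX replicate 1 (0.20) and in IQD9 without WT replicate 2 (-0.12). The length-corrected value of IQD9 passed without WT replicate 1 (0.14). IQD16 was called lower with quantile normalization (-0.24, limma adjusted p = 0.0183) and IQD4 higher with eBayes without trend (0.17, limma adjusted p = 0.0411).

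Members with similar proteins were set side by side. IQD13 and IQD14 had the highest identity, 72.3% over the length of the shorter protein, and the log2 changes were 0.03 and 1.28. IQD14 was close to IQD13 in WT, 36.0 against 27.4 FPKM in the mean, and above it in SCL28-OX, 89.0 against 28.1. All stretches of 50 bases in the transcript of IQD14 were found in no transcript of another annotated gene. For IQD13, which the antisense RNA overlaps, 52.0% were, the lowest share in the family. IQD1 and IQD2 (62.0% identity) had log2 changes of 0.19 and 0.35, IQD17 and IQD18 (71.5%) of 0.16 and 0.21, and IQD30 and IQD31 (66.3%) of -0.05 and 0.05. In the IQD23 and IQD24 pair (66.3%) the values were -0.27 and -0.10, and in IQD28 and IQD29 (56.8%) 0.32 and 0.06. Differences between the changes of a pair were not tested. IQD7 and IQD8 (72.0%) differed in level more than in change, with means of 1.86 and 6.72 FPKM in WT.

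**Figure D4:**
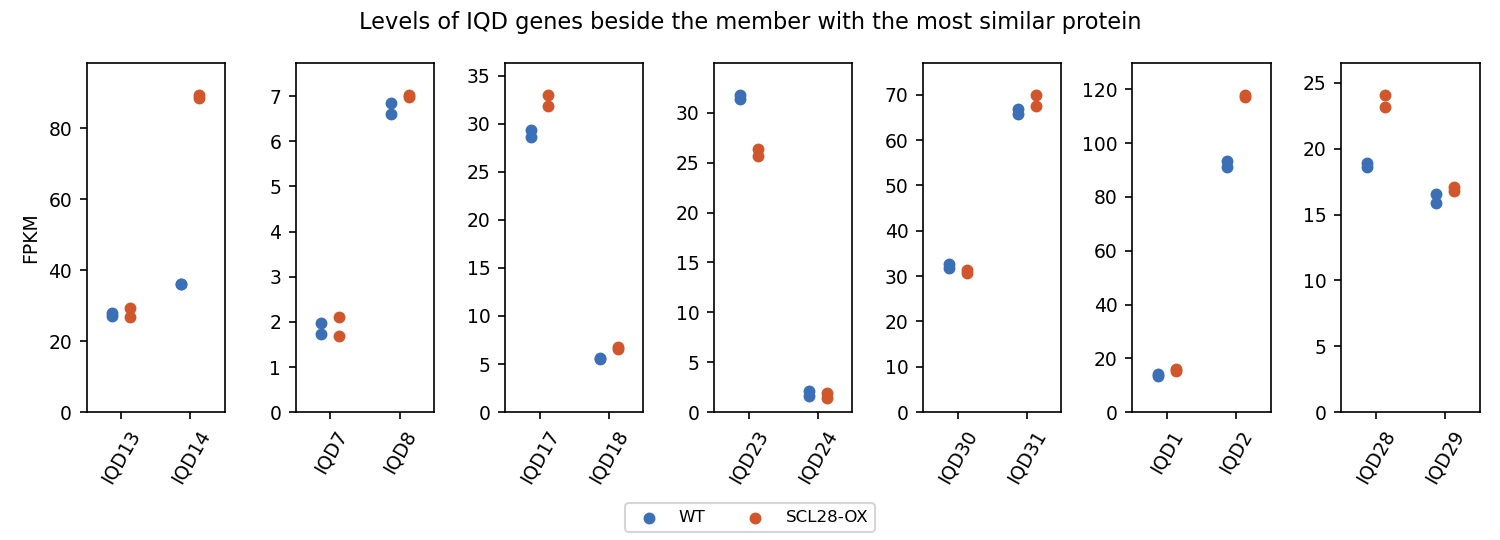
FPKM of 7 pairs of IQD genes with similar proteins in the 2 WT (blue) and 2 SCL28-OX (red) libraries, each panel with its own axis from 0. IQD14 is at 89.4 and 88.6 FPKM in SCL28-OX against 36.0 in WT, and IQD13 at 29.4 and 26.7 against 27.1 and 27.8.

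The windows of 250 bases before the annotated start are shown for IQD14 and IQD13, because these similar genes differed in their change. The motif searched was AACGG, read on both strands (CCGTT on the other), the core of the elements that MYB3R factors of the cell cycle bind. Capitals mark it, and the sequences are RefSeq TAIR10.1, plus strand.
IQD14, chr2:18107869-18108118: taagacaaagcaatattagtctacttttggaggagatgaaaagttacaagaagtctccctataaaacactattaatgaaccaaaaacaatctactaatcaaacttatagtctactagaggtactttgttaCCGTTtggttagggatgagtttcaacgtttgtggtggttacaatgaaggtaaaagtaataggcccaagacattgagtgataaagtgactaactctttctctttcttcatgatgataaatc
IQD13, chr3:22048307-22048556: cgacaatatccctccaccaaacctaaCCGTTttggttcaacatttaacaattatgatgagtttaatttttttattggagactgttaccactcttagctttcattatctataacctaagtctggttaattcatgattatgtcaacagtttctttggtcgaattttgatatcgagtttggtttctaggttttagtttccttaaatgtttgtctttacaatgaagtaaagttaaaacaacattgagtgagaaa
The deposited table starts IQD14 at 18108349 and IQD13 at 22048754, both inside the gene as annotated in TAIR10.1. Windows before the deposited starts were not searched. Each window held the motif 1 time, in the orientation CCGTT, and farther from the annotated start in IQD13 than in IQD14. Whether the motif bears on the change of either gene was not tested. Of the 33 members 10 had it in this window (30.3%), against 5645 of 27443 windows of the same length (20.6%), a count of letters and not of bound sites.

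Genes of the partners of IQD proteins were read from lists. The calmodulin genes, whose proteins IQD scaffolds bind, were all called lower in the FPKM as deposited, 7 of 7, with a median log2 change of -0.44. After the length correction 5 were called, with a median of -0.09, and with length and GC 4. The calmodulin genes with the longest annotated transcripts, CAM4 (1738 bases) and CAM7 (1946), kept the most of their change with the length correction. The others have transcripts of 818 to 1143 bases, and uncorrected all 7 lay between -0.50 and -0.42. Each length is that of the longest annotated form, which need not be the one expressed, so the corrected values are uncertain. CAM7 stood at 756 and 745 FPKM in WT and at 545 and 531 in SCL28-OX, a log2 change of -0.48, or -0.52 after the length correction, and CAM4 at 727 and 717 against 534 and 529.5, a log2 change of -0.44, or -0.42. With length and GC corrected together CAM7 was at -0.36 and CAM4 at -0.25, and both passed in all 3 fits. So did CAM1 and CAM3, at -0.06 and -0.21 with length and GC.

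KLCR1, a kinesin light chain-related protein that binds IQD1 and microtubules, rose in all 3 fits. It stood at 79.5 and 81.0 FPKM in WT and at 125 and 125 in SCL28-OX, with no overlap, and its log2 change was 0.63 ± 0.03 (SE, limma adjusted p = 1.2e-06), 0.49 after the length correction and 0.37 with length and GC. KLCR2 and KLCR3, at 0.23 each, passed in the FPKM as deposited and were at -0.04 and 0.02 after the correction. The count of 3 KLCR genes that rose became 2 without WT replicate 1, WT replicate 2 or SCL28-OX replicate 2. The kinesins POK1 and POK2, partners of IQD6 to IQD8, have very long transcripts and low levels. POK1 stood at 2.00 and 1.84 FPKM in WT and at 3.62 and 3.54 in SCL28-OX, a ratio of 1.87. POK2 stood at 1.81 and 1.85 against 3.84 and 3.55, a ratio of 2.02. Their log2 changes were 0.65 and 0.73, past the test, and -0.15 and -0.20 after the length correction, not past it. At such levels the added 1 FPKM understates a rise, and the length trend was fitted over all genes. The sign of these corrected values is therefore uncertain. In the list of 11 division site genes 7 rose and 2 fell, and 2 and 2 after the length correction. Of 11 cortical microtubule genes likewise 7 rose and 2 fell, and 3 and 1 after the correction, with the plus-end gene CLASP going from 0.79 to 0.18 and MOR1, a microtubule polymerase, from 0.97 to 0.16. Of 11 other calmodulin-binding genes with IQ motifs, the CAMTA transcription factors and the IQM genes, 7 rose and 2 fell, and 3 and 3 after the correction. The length-corrected counts of these lists moved with single libraries. Without WT replicate 1, 0 division site genes rose and 1 fell, without WT replicate 2 or SCL28-OX replicate 1 it was 1 and 1, and without SCL28-OX replicate 2, 1 rose. Of the microtubule genes none fell when any library was left out, and 1 rose without WT replicate 2. Of the genes with IQ motifs 1 rose without WT replicate 2, and without the correction 1 fell when either WT library or SCL28-OX replicate 1 was left out. With length and GC corrected together 0 division site genes rose and 1 fell, 1 microtubule gene rose and 1 fell, and 2 of the genes with IQ motifs rose and 3 fell, where 42.1% of all genes were called. IQM3 fell in all 3 fits, at -0.42 without and with the length correction and at -0.47 with length and GC. The counts of called genes in these lists stand beside the same 66.5% of all genes called without and 46.2% with the length correction.

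**Figure D5:**
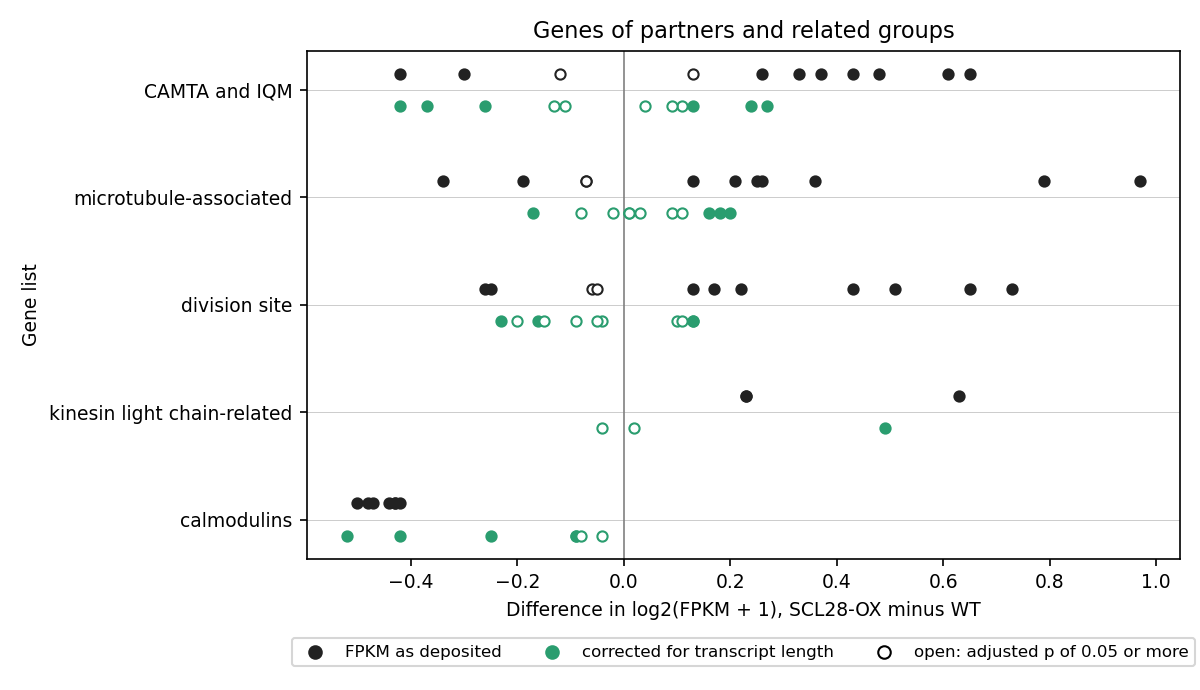
Difference in log2(FPKM + 1), SCL28-OX minus WT, of each gene in 5 lists of partners and related genes, from the FPKM as deposited (black) and after the correction for transcript length (green). Open points have a limma adjusted p of 0.05 or more, and the 7 calmodulin genes, black between -0.50 and -0.42, spread from -0.52 to -0.04 in green.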

How the data were processed

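RNA was sequenced from 4 libraries, 2 of WT and 2 of SCL28-OX, made with a kit that keeps strand, per the labels' protocols. The submitters' processing notes name TopHat2 2.0.13, Cuffdiff 2.2.0, CASAVA 1.8.2 and the TAIR10 build. The authors deposited FPKM per gene and library, and a table of their comparison that gives each gene a p-value and a q-value, per the file headers. Of 26883 lines, 26822 were used: 49 with columns shifted by a space in the name, 11 whose mean differed from the deposited mean by over 0.1% and 1 without values in the comparison table were left out. Positions are those of the deposited table, and sequences and lengths those of the RefSeq annotation of TAIR10.1, whose gene ends often differ.

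Genes whose mean reached 1 FPKM were tested on log2(FPKM + 1), which understates the change of low genes, with limma 3.58.1 in R 4.3.3 (lmFit, eBayes with trend), two-sided, Benjamini-Hochberg over 18087 genes, threshold 0.05. The length correction takes from each library a loess fit (span 0.5, degree 1) of its deviation from the gene mean on log2 length of the longest transcript. For the length-corrected values without a library, all 4 libraries were corrected together before that library was left out, so it still entered the correction. The fit was tested on simulated data. Depths were read from the steps of low FPKM (93.4% to 94.9% of values whole within 0.1) and hold only if the scaling used each library's own mapped fragments. Summed FPKM were 951429 and 945618 in WT and 848731 and 849311 in SCL28-OX. Python 3.11.15, pandas 2.3.3, Biopython 1.88 and matplotlib 3.10.9 were used.

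All members may be named, and those described in full are the 6 largest rises and falls without or with the length correction and the member with the highest mean. Members, lists and this rule were chosen with earlier results of these data known. Alternatives changed the pseudocount, the filter, the scaling, the correction, the eBayes settings, the replicate block, the overlapping lines and the libraries, leaving out each in turn.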

Additional observations from a re-analysis of the deposited data

How the results depend on the processing

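Without a length correction, 9 members were called higher and 4 lower, with pseudocounts of 0.1 and 5 FPKM, a mean of at least 5 FPKM, median-ratio scaling and robust eBayes alike. Quantile normalization gave 8 and 5, eBayes without trend 10 and 4, no filter 9 and 3, and the 25 members on lines that neither join nor overlap others 8 and 3. Leaving out a library gave 7 to 8 higher and 3 to 5 lower, and with the length correction 4 to 5 higher and 3 to 5 lower in place of 4 and 6. With an arm of 1 library the lone library is assumed to vary like the others. The length correction moved the members called higher to 4 and all genes called lower from 6112 to 4046. Length and GC corrected together gave 5 members higher, and 3705 higher and 3785 lower of all genes, against 5911 and 6112. Directions turned, where either value was called, for IQD13 (-0.16), IQD29 (-0.15), IQD31 (-0.12) and IQD32 (-0.07) with the length correction, and for IQD17 (-0.01), IQD29 (-0.15), IQD31 (-0.12) and IQD32 (-0.05) with length and GC. What lies behind these trends with length and GC was not tested. A further 39 of 620 values, in 14 members, changed sign with no call on either side. The replicate numbers give only 2 pairs, and same-numbered libraries deviated with a correlation of 0.122 over 18087 genes. With the replicate number as a block 9 members were higher and 4 lower, and 5793 and 6161 of all genes. With the replicate block and the length correction, added after the data were seen like the length-corrected values without each library, these were 4 and 6, and 4149 and 4025. IQD21, IQD25 and IQD27, tested without the filter, were at 0.06, -0.04 and 0.06 and not called. At their FPKM the added 1 FPKM holds these values near 0, so they say little about a change. IQD27 had a ratio of 2.23 without overlap, at 0.0339 to 0.0862 FPKM, and in IQD21 and IQD25 the genotypes overlapped.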
